A study of Mus musculus with 6 samples.

Results

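The genes that end transcripts made by RNA polymerase II moved in both directions after Gm39822 knockdown in mouse brain endothelial cells. They comprised 47 genes of 3′ end processing, transcription termination and the Integrator complex, picked by gene name out of the 49315 genes in the count table. All 47 were in the table and all 47 passed the filter on low counts, which 18234 genes passed in all. Of the 47, 12 rose and 12 fell, together 51.1%, close to the 45.3% of all genes tested that changed. The poly(A) polymerase gene Papola fell, and the cleavage activator Rbbp6, the Integrator subunit Ints2, the poly(A) signal reader Wdr33, the termination regulators Rprd1a and Scaf8, and the CstF subunit Cstf3 rose by more than 1.5-fold. Over all genes tested, 25.4% changed by at least 1.5-fold. The endonuclease Cpsf3, which makes the cut, and the exonuclease Xrn2 did not pass the test. Of 15 tested genes that begin within 10 kb after a member on the same strand, 7 rose, 3 of them at least 8-fold, a share close to the 44.2% that rose among genes after any expressed gene.

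A messenger RNA ends where the cleavage and polyadenylation machinery cuts the nascent transcript and a poly(A) polymerase adds the tail. CPSF reads the poly(A) signal and cuts, CstF and cleavage factors I and II bind around the site, and exonuclease then degrades the RNA still attached to the polymerase, which leaves the DNA. The PAF complex, the kinases Cdk9 and Cdk12 and the pausing factor NELF control how the polymerase travels before that point. Integrator is a separate cleavage complex that trims small nuclear RNAs and terminates paused polymerase near promoters.

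The samples were cultures of bEND.3, an established line of mouse brain endothelial cells and so a single cell line rather than several animals. All were transfected by lipofection. The GapmeR group (n = 4) received an antisense LNA oligonucleotide against the long noncoding RNA Gm39822 at 100 nM, and the negative control group (n = 2) received a control LNA GapmeR at 100 nM. No untransfected cells and no other Gm39822 GapmeR were analysed here, so an effect of the knockdown and an effect of this oligonucleotide sequence cannot be told apart. The labels do not say whether samples of a group were separate cultures, and the p-values measure the spread between these samples. Levels are given as CPM, the counts of a gene scaled to a common depth, with TMM, the edgeR scaling that sets most genes level between samples. A gene was called changed when the edgeR quasi-likelihood test gave an adjusted p below 0.05.

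The targeted Gm39822 was counted 2, 1, 4 and 2 times in the GapmeR samples, in the order 1 to 4, and 61 and 56 times in controls 1 and 2. Every GapmeR sample lay far below both controls. The log2 fold change was -4.82 (SE 0.41, edgeR quasi-likelihood test, adjusted p = 8.82e-08). Libraries held 29261988 to 37117934 counts. Endothelial genes were abundant, with mean control levels of 2463 CPM for Cdh5 and 1265 CPM for Pecam1, and 7 of 12 endothelial markers fell and 1 rose. The 12 macrophage markers summed to 179 to 184 CPM in the controls and 216 to 406 CPM in the GapmeR samples. The sums were highest in GapmeR samples 3 and 4. Most of each sum came from Lyz2 (62.1 to 68.8 CPM in the controls, 73.5 to 206 CPM in the GapmeR samples) and Cd68. Cd68 was at 87.2 to 89.5 CPM in the controls and 113 to 125 CPM in the GapmeR samples. Ptprc had a mean of 1.38 CPM in the controls and 2.92 CPM in the GapmeR samples, and Csf1r had means of 7.08 and 16.3 CPM. Of the 12, 11 had a log2 fold change above 0 and 1 below, and 2 were called, both higher (Cd68 and Fcer1g). The 11 mural or fibroblast markers summed to 14.8 to 15.6 CPM in the controls and 19.8 to 59.3 CPM in the GapmeR samples. Of the 10 tested, only Myh11 rose, at 0.365 and 0.251 CPM in the controls and 5.37 to 5.93 CPM in the GapmeR samples. The 9 others were not called, with log2 fold changes from -1.18 to 2.38. The highest sum was that of GapmeR sample 3, where Col1a1 alone was at 38.0 CPM against 2.21 to 4.58 CPM in the other GapmeR samples. The part of these cells in the results was not tested, and in bulk samples fewer cells of a type and less RNA per cell cannot be told apart.

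Of the 47 members, 12 rose and 12 fell, together 51.1%. Over all genes tested, 45.3% were called, 25.4% in the higher and 20% in the lower direction. Past 1.5-fold there were 6 members that rose and 1 that fell, against 25.4% of all genes in either direction. The median absolute log2 fold change was 0.21 over the members and 0.38 over all genes tested. The share of members called was close to that of all genes, and their median change was the smaller. The 2 sets differ in level, since a gene entered the test with 5 counts in 2 samples. The member with the lowest level, Rprd1a, had 83 to 208 counts per sample. Members were not compared with genes of like level. All GapmeR samples lay above both controls for 14 members and below both for 16, and the groups overlapped for 17, while groups did not overlap for 59.2% of all genes (above for 31.9% and below for 27.3%). The median log2 fold change was -0.04 over the members and 0.03 over all genes.

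The split between the directions depended on the scaling. With library size in place of TMM, 17 members rose and 4 fell, while 33.5% of all genes tested rose and 11.7% fell. The median log2 fold change of all genes then moved to 0.17. With a curve on GC content removed, 7 rose and 28 fell, while 18.0% of all genes rose and 40.6% fell. The median of all genes then moved to -0.22. The curve was fitted to the log2 CPM of each sample. Removing it therefore took out differences in the overall level of the samples as well as their trend with GC content. The share of each in the shifts and lost calls under the GC curve was not tested. The difference between the median of the members and that of all genes was -0.06 with TMM, -0.06 with library size and -0.03 with the GC curve. The 9 members Rbbp6, Ints2, Wdr33, Scaf8, Cstf3, Pcf11, Papola, Fip1l1 and Ints12 stayed called in the same direction under every scaling, test, filter and block tried and without each sample in turn.

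**Figure D1:**
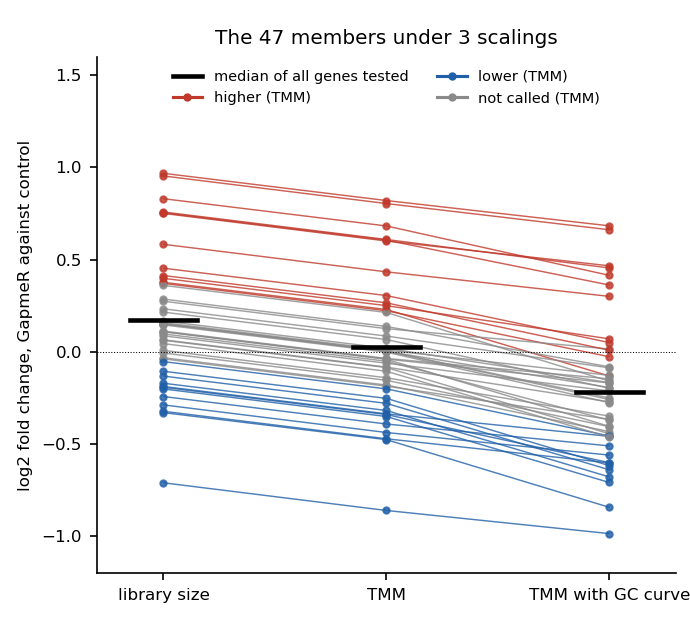
Each line is 1 of the 47 members and the vertical axis is its log2 fold change under library size scaling, TMM and TMM with a GC curve; black bars mark the median of all genes tested, at 0.17, 0.03 and -0.22. Colours give the call under TMM, and every line shifts down from left to right. The GC curve also resets the overall level of each sample.

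**Figure D2:**
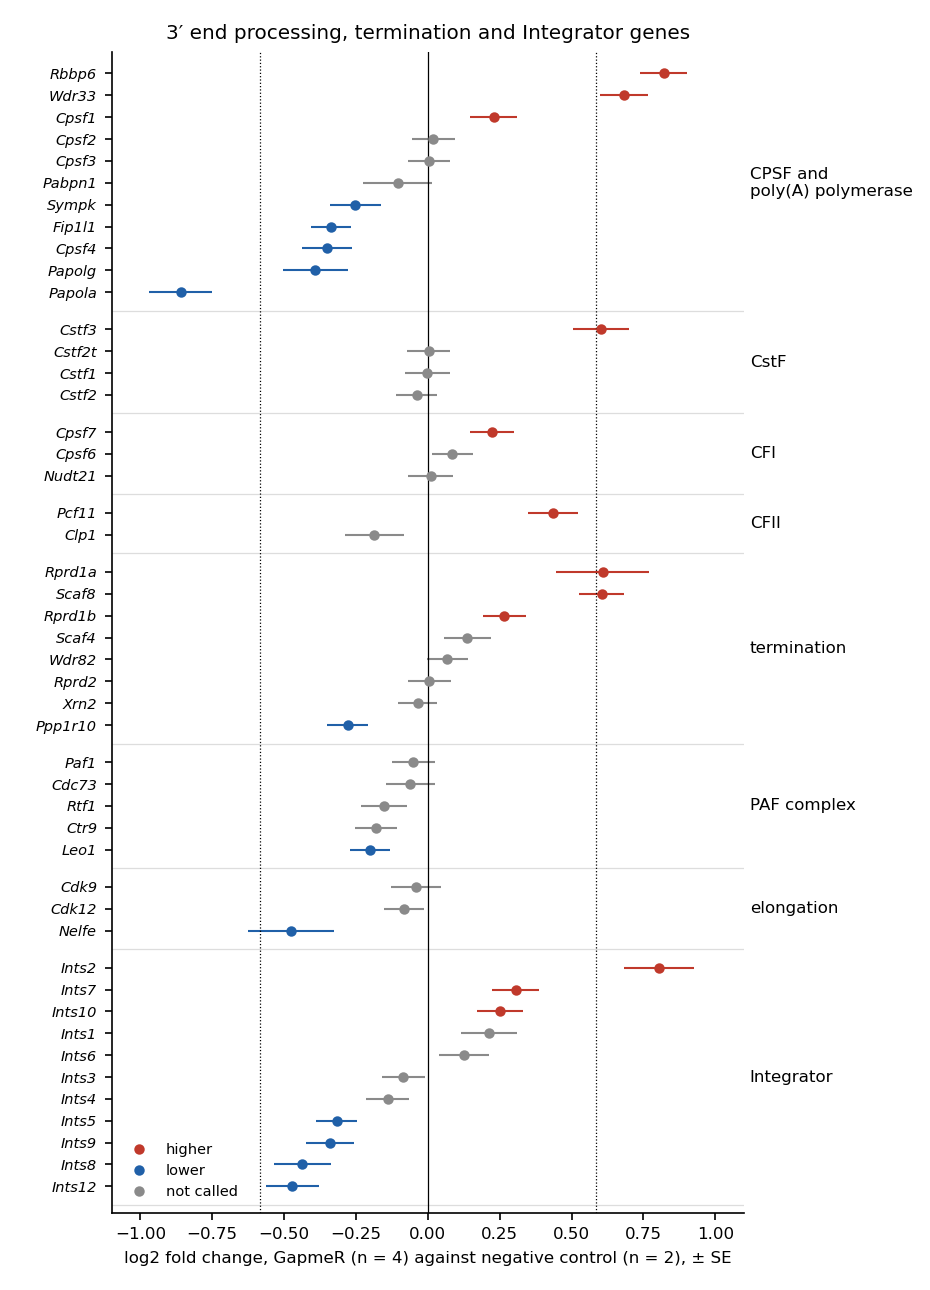
The horizontal axis is the log2 fold change of each of the 47 genes in GapmeR (n = 4) against negative control (n = 2) samples, with bars of 1 SE and rows grouped by role. Red points rose, blue points fell and grey points were not called, and the dotted lines mark 1.5-fold; 6 points called higher and 1 called lower lie past them.

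Promoter letters are shown for 3 members that moved past 1.5-fold and kept their call: Ints2 and Cstf3, which rose, and Papola, which fell. Each run is the RefSeq promoter sequence of build mm10, read 5′ to 3′ on the strand of the gene and stopped before the gene's annotated start; capitals mark the letters of the ETS motif (CCGGAAG) or the NRF1 motif (GCATGCGC) on either strand. The Ints2 run is the 235 bases of chr11:86257610-86257844 on the minus strand, the Cstf3 run the 250 bases of chr2:104590234-104590483 on the plus strand and the Papola run the 230 bases of chr12:105784447-105784676 on the plus strand.
Ints2: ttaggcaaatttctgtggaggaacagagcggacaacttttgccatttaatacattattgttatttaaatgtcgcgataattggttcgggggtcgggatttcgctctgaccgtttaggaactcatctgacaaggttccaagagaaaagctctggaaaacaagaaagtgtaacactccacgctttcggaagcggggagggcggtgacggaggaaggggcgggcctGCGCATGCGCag
Cstf3: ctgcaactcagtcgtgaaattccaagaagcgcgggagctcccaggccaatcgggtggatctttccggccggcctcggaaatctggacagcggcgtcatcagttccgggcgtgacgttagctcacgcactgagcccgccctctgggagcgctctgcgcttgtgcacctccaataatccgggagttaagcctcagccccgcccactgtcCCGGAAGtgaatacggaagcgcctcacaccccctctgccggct
Papola: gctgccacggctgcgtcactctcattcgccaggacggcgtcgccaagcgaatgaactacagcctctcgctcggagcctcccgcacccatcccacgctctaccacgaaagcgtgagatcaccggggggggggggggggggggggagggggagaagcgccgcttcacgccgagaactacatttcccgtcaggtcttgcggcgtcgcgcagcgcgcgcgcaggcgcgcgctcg

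Ints2 carries overlapping NRF1 letters on both strands that begin 12 bases before the end of the printed run, Cstf3 carries ETS letters that begin 43 bases before it, and the Papola window holds neither motif. RefSeq promoter windows of 300 bases, 250 before and 50 after the start, were found for 38 of the 47 members. ETS letters were in 11 of these 38 (28.9%) and in 9.12% of all 27025 windows. They were in 3 of the 8 windows of members that rose, 1 of the 8 of members that fell and 7 of the 22 of members not called. NRF1 letters were in 4 of 38 against 2.80% of all windows, and the GC box GGGCGG in 25 of 38 against 35.9%. CCAAT was in 15 of 38 against 37.9% of all windows, and the YY1 letters AAGATGGC in 3 of 38 against 2.88%. TATAAA was in 1 of 38, that of Ppp1r10, against 14.2% of all windows. These are matches of letters on either strand, which describe the windows.

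Of the CPSF and poly(A) polymerase genes, 3 of 11 were higher and 5 lower (3 and 2 with library size scaling, 2 and 7 with the GC curve). Over all genes, 25.4% were higher and 20% lower (33.5% and 11.7% with library size scaling, 18.0% and 40.6% with the GC curve). Rbbp6 (chr7:122969637-123002572, mm10), whose product binds CPSF and activates its endonuclease, was at 215, 195, 227 and 206 CPM in GapmeR samples 1 to 4 and at 114 and 125 CPM in the controls. All GapmeR samples lay above both controls, and the log2 fold change was 0.82 (SE 0.08, adjusted p = 6.46e-07). Papola (chr12:105784677-105838949), the main nuclear poly(A) polymerase, was at 71.2, 97.0, 71.7 and 81.7 CPM against 141 and 151 CPM. All GapmeR samples lay below both controls, with a log2 fold change of -0.86 (SE 0.11, adjusted p = 4.01e-05), the lowest of the 47 members. Wdr33, on chromosome 18, encodes the subunit that contacts the poly(A) signal together with the Cpsf4 product. It was at 44.4, 39.9, 45.6 and 46.7 CPM against 28.1 and 26.9 CPM, a log2 fold change of 0.68 (SE 0.08, adjusted p = 6.82e-06). Its exons share 10.7% of their bases with Sft2d3 on the opposite strand, which had a mean of 185 counts, and whether the counting used strand is not given in the sources used here.

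Within that group Wdr33 rose while Cpsf4 fell, by 0.35 on the log2 scale (SE 0.09, adjusted p = 0.00366). Fip1l1, which brings the polymerase to CPSF, fell by 0.34 (SE 0.07, adjusted p = 0.000981), the scaffold Sympk by 0.25 (SE 0.09, adjusted p = 0.0291) and the second polymerase Papolg by 0.39 (SE 0.11, adjusted p = 0.0106). The scaffold Cpsf1 rose, with a log2 fold change of 0.23 (SE 0.08, adjusted p = 0.0316), but under the GC curve its value was -0.13 and it was not called, and the call was also lost with the replicate block and without GapmeR sample 1 or 4 or either control. The endonuclease Cpsf3, Cpsf2 and the nuclear poly(A)-binding protein gene Pabpn1 were not called, at 0.00, 0.02 and -0.10, although Cpsf3 was called lower under the GC curve (-0.26, adjusted p = 0.00611). Sympk and Papolg lost their calls with library size scaling and without either control sample, Sympk also without GapmeR sample 4 and with at least 10 counts in every sample, Papolg also with the replicate block, and Cpsf4 lost its call with library size scaling and without control sample 2.

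**Figure D3:**
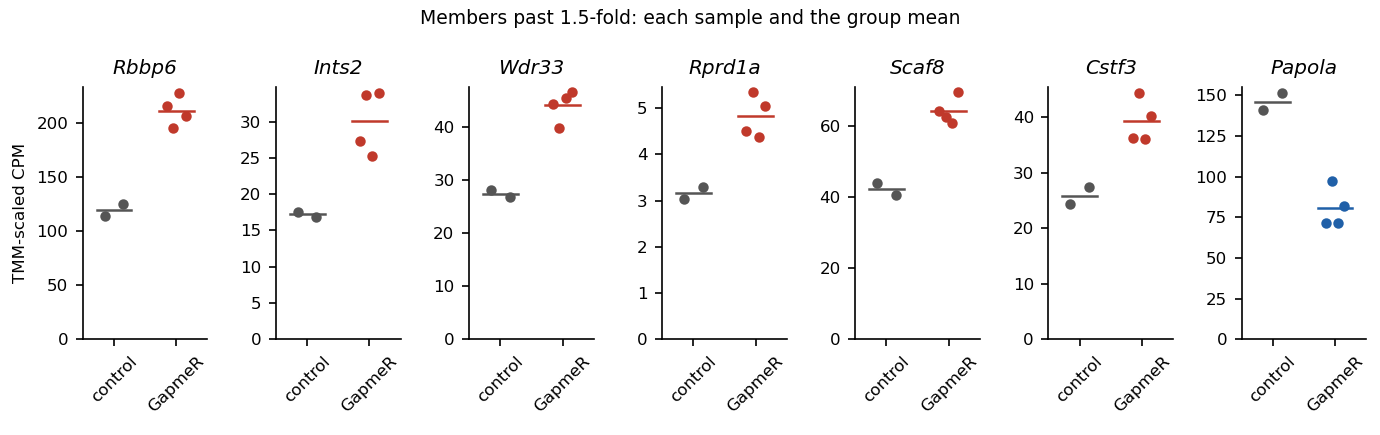
Each panel is 1 of the 7 members called and past 1.5-fold, with TMM-scaled CPM on a vertical axis that starts at 0; points are samples (2 control, 4 GapmeR) and lines are group means. The GapmeR points of the first 6 genes lie above both control points, and those of Papola lie below both.

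In CstF, which binds the GU-rich element after the cut, Cstf3 alone of 4 genes was called. Under the GC curve the others were called lower, as were 40.6% of all genes. Cstf3 (chr2:104590484-104665425), the scaffold subunit, was at 36.3, 44.5, 36.1 and 40.2 CPM against 24.3 and 27.4 CPM, a log2 fold change of 0.60 (SE 0.10, adjusted p = 0.000107). Cstf2, the subunit that touches the RNA, was at 63.5, 63.3, 58.0 and 60.9 CPM against 61.9 and 64.3 CPM, with overlapping groups and a log2 fold change of -0.04 (SE 0.07, adjusted p = 0.686). Cstf1 and Cstf2t were at -0.00 and 0.00.

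In cleavage factor I, which binds upstream of the site, the large subunit gene Cpsf7 rose and the other two genes were not called. Cpsf7 was at 86.1, 86.4, 82.0 and 95.0 CPM against 77.1 and 72.7 CPM (log2 fold change 0.22, SE 0.08, adjusted p = 0.0252), and under the GC curve its value was -0.03 and it was not called, and the call was also lost without GapmeR sample 4 or either control. Nudt21, the RNA-binding subunit, was at 32.8, 31.2, 29.8 and 29.2 CPM against 30.3 and 30.8 CPM (log2 fold change 0.01, SE 0.08, adjusted p = 0.93). Of cleavage factor II, Pcf11 rose. It encodes a protein that binds the polymerase tail and promotes termination, and was at 94.4, 111, 90.1 and 98.1 CPM against 69.1 and 76.5 CPM (log2 fold change 0.43, SE 0.09, adjusted p = 0.000722). Its partner Clp1, an RNA kinase, was at 11.0, 10.4, 11.3 and 11.3 CPM against 13.2 and 11.8 CPM (log2 fold change -0.19, SE 0.10, adjusted p = 0.157).

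Of the 8 termination genes, 3 rose and 1 fell (5 and 0 with library size scaling, 2 and 3 with the GC curve). Among all genes, 25.4% rose and 20% fell (33.5% and 11.7% with library size scaling, 18.0% and 40.6% with the GC curve). Scaf8 (chr17:3114972-3198859), which encodes a tail-binding protein that holds back early polyadenylation, was at 64.2, 62.6, 60.8 and 69.6 CPM against 44.1 and 40.5 CPM. The groups did not overlap, and the log2 fold change was 0.61 (SE 0.08, adjusted p = 1.19e-05). Rprd1a, on chromosome 18, encodes another protein that binds the polymerase tail. It was the member with the lowest level per kb of exon, 0.358 CPM per kb in the controls, and was at 4.52, 5.34, 4.38 and 5.05 CPM against 3.03 and 3.29 CPM (log2 fold change 0.61, SE 0.16, adjusted p = 0.00598). Without control sample 1 its adjusted p was 0.0573.

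Rprd1b rose by a log2 fold change of 0.27 (SE 0.07, adjusted p = 0.00821). Ppp1r10 encodes PNUTS, the subunit that directs protein phosphatase 1 to the polymerase. It was at 97.5, 88.6, 97.8 and 98.3 CPM against 117 and 115 CPM, and fell by 0.28 on the log2 scale (SE 0.07, adjusted p = 0.00438). The call of Rprd1b was lost under the GC curve and without control sample 2, and that of Ppp1r10 with library size scaling and without either control sample. Xrn2, the exonuclease that follows the polymerase, had a log2 fold change of -0.04 (SE 0.07, adjusted p = 0.7). Wdr82, Rprd2 and Scaf4 were at 0.07, 0.01 and 0.14 and were not called. Scaf4 shares 31.2% of its exon bases with the abundant Sod1 on the opposite strand, the highest share of any member.

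The 5 genes of the PAF complex, which travels with the elongating polymerase, all had log2 fold changes below 0 with TMM. They ran from -0.20 to -0.05, and 1 passed the test. With library size scaling Cdc73 and Paf1 lay above 0 (0.09 and 0.10) and none was called. With the GC curve all 5 were called lower, as were 40.6% of all genes. Leo1 was at 57.0, 52.8, 56.2 and 54.6 CPM against 64.1 and 62.6 CPM (log2 fold change -0.20, SE 0.07, adjusted p = 0.0258). Its call was lost with library size scaling, with at least 10 counts in every sample, with the replicate number as a block (log2 fold change -0.19) and without GapmeR sample 3 or 4 or either control. Paf1 was at 83.4, 80.1, 86.7 and 78.2 CPM against 80.5 and 89.5 CPM (log2 fold change -0.05, SE 0.07, adjusted p = 0.608).

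Among the 3 genes of elongation control, Nelfe fell. It encodes the RNA-binding subunit of the pausing factor NELF and was at 66.1, 51.0, 80.1 and 69.3 CPM against 97.0 and 88.1 CPM (log2 fold change -0.48, SE 0.15, adjusted p = 0.0311). All GapmeR samples lay below both controls, with GapmeR sample 2 lowest. The call was lost with library size scaling, without GapmeR sample 1 and without either control. Cdk9, the kinase of pause release, was at 136, 162, 145 and 134 CPM against 138 and 159 CPM (log2 fold change -0.04, SE 0.09, adjusted p = 0.738), and Cdk12, a kinase of the polymerase tail, was at -0.08.

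Of the Integrator genes, 3 of 11 were higher and 4 lower (5 and 2 with library size scaling, 1 and 6 with the GC curve). Among all genes, 25.4% were higher and 20% lower (33.5% and 11.7% with library size scaling, 18.0% and 40.6% with the GC curve). Ints2 (chr11:86210681-86257609), a subunit of the scaffold, was at 27.3, 33.7, 25.2 and 33.9 CPM against 17.6 and 16.9 CPM. The GapmeR samples lay above both controls, with samples 2 and 4 the highest, and the log2 fold change was 0.80 (SE 0.12, adjusted p = 9.51e-05). Its exons share 10.2% of their bases with Brip1os on the opposite strand, which had a mean of 1355 counts and a log2 fold change of -0.20. Ints12, a small subunit with a PHD finger, was at 26.2, 30.0, 24.6 and 25.0 CPM against 34.7 and 38.7 CPM. All GapmeR samples lay below both controls, and the log2 fold change was -0.47 (SE 0.09, adjusted p = 0.000531).

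Ints7 rose with a log2 fold change of 0.31 (SE 0.08, adjusted p = 0.00685) and Ints10 with 0.25 (SE 0.08, adjusted p = 0.019), and both calls were lost under the GC curve and without control sample 2. Ints8, which holds protein phosphatase 2A on the complex, fell by 0.44 (SE 0.10, adjusted p = 0.0023), a call lost without control sample 2. Ints9, a partner of the endonuclease subunit, fell by 0.34 (SE 0.08, adjusted p = 0.0037), and Ints5 by 0.32 (SE 0.07, adjusted p = 0.00184). Both lost the call with library size scaling, and Ints9 also without control sample 1. Ints1, Ints3, Ints4 and Ints6 were not called, at 0.21, -0.08, -0.14 and 0.13.

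On the scale of CPM per kb of exon, control levels within Integrator ran from 1.07 for Ints6 and 1.44 for Ints2 to 11.5 for Ints1 and 22.8 for Ints5. The gap between Ints2 and Ints5 was smaller in the GapmeR samples, which restates the rise of Ints2 and the fall of Ints5 given above. In the GapmeR samples Ints2 was at 2.51 ± 0.373 CPM per kb (SD, n = 4) and Ints5 at 18.3 ± 0.956. In the controls they were at 1.44 ± 0.0437 (SD, n = 2) and 22.8 ± 0.172. Over all 47 members, control levels ran from the 0.358 CPM per kb of Rprd1a to 27.7 for both Sympk and Cdk9.

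For 8 pairs of related genes, the log2 ratio of the pair was compared in each sample by an exact permutation test, two-sided, in which 4 against 2 samples cannot go below p = 0.0667. The ratios of the 2 groups did not overlap in 5 of 8 pairs, each with that smallest p = 0.0667 in the exact permutation test, or 0.107 after adjustment over the 8 pairs, so that no pair passed the test. Groups did not overlap for 59.2% of single genes. The ratio of Scaf4 to Scaf8 was -0.13, -0.09, 0.03 and 0.02 on the log2 scale after the GapmeR against 0.34 and 0.52 for the controls, lower in all 4 GapmeR samples. That of Papola to Papolg was 2.85, 3.21, 3.12 and 3.10 against 3.52 and 3.57.

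The ratio of Ints6 to its relative Ints6l was higher in all 4 GapmeR samples, at 3.89, 3.77, 3.84 and 3.39 on the log2 scale against 3.00 and 2.82. The ratio of Rprd1a to Rprd1b differed by 0.34 and that of Cdk12 to Cdk13 by -0.35 between the group means. The groups overlapped for Cstf2 to Cstf2t, Cpsf6 to Cpsf7 and Cdk9 to Cdk12. The longest run of bases shared within any pair was 26, that of Cstf2 and Cstf2t, which is shorter than the reads.

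**Figure D4:**
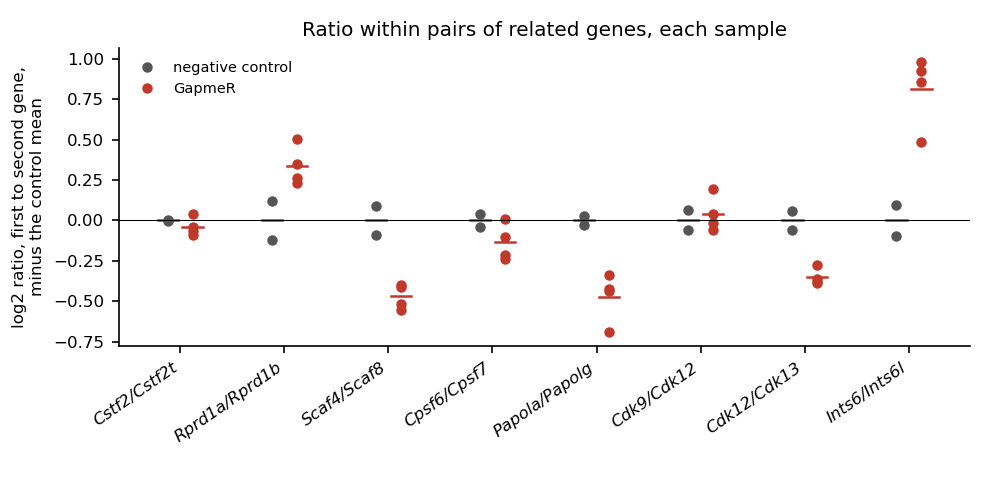
The vertical axis is the log2 ratio of the counts of the first to the second gene of each pair minus its control mean; points are samples (grey, 2 control; red, 4 GapmeR) and short lines are group means. In 5 of 8 pairs the red points lie wholly above or below the grey ones, with the ratio of Ints6 to Ints6l farthest from 0.

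Of a further list of 59 genes that work with these complexes, 58 were tested, and 8 rose and 12 fell, together 34.5% against the 45.3% of all genes. With library size scaling 18 rose and 6 fell, and with the GC curve 3 rose and 39 fell. Over all genes, 33.5% rose and 11.7% fell with library size scaling, and 18.0% rose and 40.6% fell with the GC curve. Srrt, the cap-bound protein ARS2 that links capping to termination, was at 236, 262, 241 and 257 CPM against 139 and 139 CPM (log2 fold change 0.84, SE 0.08, adjusted p = 1.91e-07). Ssu72, a phosphatase of the polymerase tail that sits on CPSF, was at 62.0, 64.6, 62.5 and 58.5 CPM against 39.5 and 35.2 CPM (log2 fold change 0.73, SE 0.08, adjusted p = 1.45e-06).

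Nabp1, a single-stranded DNA-binding protein found with Ints3, was at 21.3, 23.7, 21.5 and 24.1 CPM against 37.6 and 41.3 CPM (log2 fold change -0.80, SE 0.08, adjusted p = 1.01e-06). Ints6l fell by 0.69 on the log2 scale (SE 0.22, adjusted p = 0.0199), a call lost with library size scaling and without control sample 2 (-0.47, adjusted p = 0.271), and Ppp2r1a, the scaffold of the Integrator-bound phosphatase, by 0.42 (SE 0.08, adjusted p = 0.000326). Hexim1 and Mepce, proteins of the 7SK particle that holds Cdk9 inactive, fell by 0.51 (SE 0.08, adjusted p = 0.000122) and 0.50 (SE 0.08, adjusted p = 5.96e-05). The 7SK RNA itself, Rn7sk, which polymerase III makes, had 193, 453, 164 and 169 counts against 175 and 216 and was not called (log2 fold change 0.09, SE 0.38, adjusted p = 0.866). Rnu4atac was not analysed here, and the other small nuclear RNA genes on the list had too few counts to be tested.

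Members with longer exons had, by a weak correlation, the higher log2 fold changes, and the further list of genes had the same sign. The sign over all genes was the opposite. Across the 47 members, log2 fold change and exon length had r = 0.29 (Spearman's rho 0.30) and log2 fold change and GC content had r = -0.11 (rho -0.10). Across the 58 tested genes of the further list, the values were r = 0.15 (rho 0.25) for exon length and r = -0.00419 (rho -0.14) for GC content. Over the 17965 tested genes with an annotation, the same values were r = -0.20 and 0.06. Genes share the same libraries and are not independent replicates, and these correlations are descriptions. Median exon length was 10.9 kb in members that rose, 8.29 kb in those that fell and 8.31 kb in those not called.

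Genes that start within 10 kb after the end of a member on the same strand were examined next. Of 15 such genes tested, 7 rose and 3 fell, while 44.2% rose among the 2609 tested genes in that position after any gene of at least 10 CPM in the controls. The median log2 fold change was 0.91 over the 15 and 0.26 over the 2609. Rsph6a, a gene of the ciliary radial spoke that starts 47 bases after Sympk, was counted 866, 998, 793 and 763 times after the GapmeR and 14 and 18 times after the control oligonucleotide. Its log2 fold change was 5.53 (SE 0.15, adjusted p = 2.79e-13), and its counts were 9.23 to 11.9% of those of Sympk in the GapmeR samples and 0.169 to 0.193% in the controls. Gm7972, a transcribed pseudogene 5684 bases after Leo1, had 281, 367, 245 and 327 counts against 7 and 10 (log2 fold change 4.95, SE 0.24, adjusted p = 9.89e-11). Slc27a3, a fatty acid transport gene 424 bases after Ints3, had 439, 517, 396 and 464 counts against 21 and 28 (log2 fold change 4.01, SE 0.16, adjusted p = 1.47e-11). For all 3 genes the GapmeR samples lay far above both controls, while Sympk and Leo1 fell and Ints3 was not called.

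The other genes of the 15 that rose were Gm6905 after Rbbp6 (log2 fold change 2.49), Brip1 after Ints2 (1.56), Tars2 after Rprd2 (0.91) and Iah1 after Cpsf3 (0.50). Counts of the processed pseudogene Gm6905 were low, at 11, 19, 8 and 16 against 1 and 3 (SE 0.64). Iah1 lost its call under the GC curve, with and without the replicate block, and without control sample 2 (0.43), and Gm6905 without control sample 1 (2.04). Those that fell included Zdhhc5, by 0.35, and Itpka, by 0.71. The groups of Itpka overlapped, and its call was lost with library size scaling, with DESeq2, with at least 10 counts in every sample and when any sample but GapmeR sample 3 was left out, down to a log2 fold change of -0.46 (adjusted p = 0.375) without control sample 2. Lpl, which follows Ints10 and is abundant in macrophages, had 173, 322, 883 and 587 counts against 139 and 221, highest in GapmeR samples 3 and 4, and was not called. Within 5 kb of a member, 4 of 8 genes rose. With library size scaling 8 of the 15 rose and 1 fell, and with the GC curve 6 rose and 6 fell.

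A high share was not particular to the members. Of the 2609 genes after any expressed gene, 17.1% rose at least 8-fold, and of the 15356 tested genes in no such position 22.2% rose and 4.72% rose at least 8-fold. Genes that follow on the opposite strand rose in 33.3%, genes that precede on the same strand in 26.7% and genes that precede on the opposite strand in 24.5%. By distance, 47.2% rose within 1 kb, 46.6% at 1 to 5 kb and 39.1% at 5 to 10 kb. The all-gene shares and the other positions were computed after the values of the members' downstream genes had been seen. Gene positions came from the annotation of build GRCm39, where pairs of neighbours were taken by gene identifier.

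**Figure D5:**
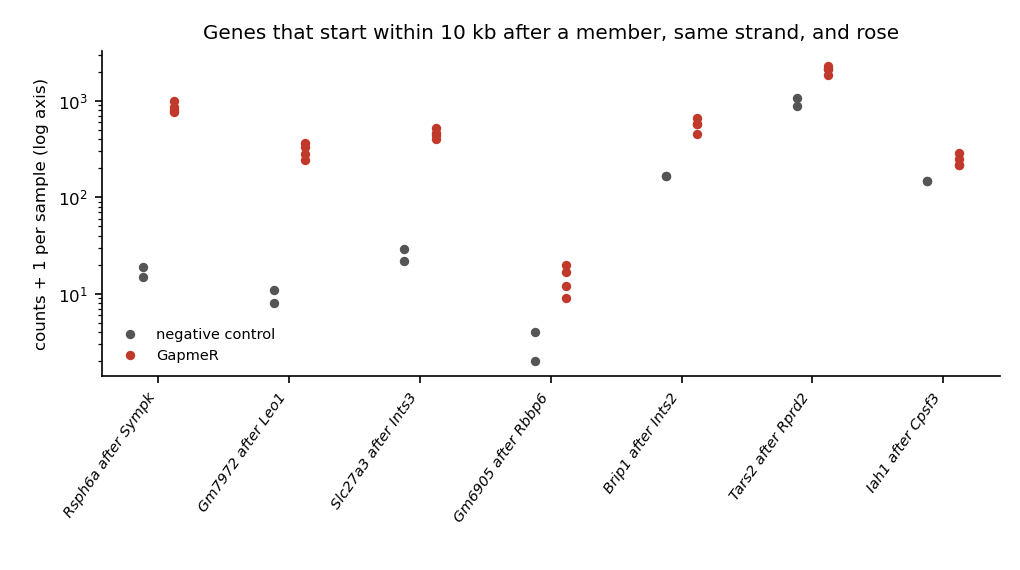
The vertical axis is counts + 1 per sample on a log axis for the 7 genes that start within 10 kb after a member on the same strand and rose, ordered by log2 fold change; grey points are the 2 control and red points the 4 GapmeR samples. Rsph6a, Gm7972 and Slc27a3 at the left have red points at 245 to 998 counts and grey points at 7 to 28.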

How the data were processed

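Per the labels and the study's methods, the authors depleted ribosomal RNA, sequenced 2 × 150 paired ends, trimmed with Trimmomatic 0.36, aligned to mm10 with STAR 2.5.2b and counted with Subread 1.5.2. The deposited values are raw counts per gene; whether counting used strand is not given in the sources used here. Counts of 4 GapmeR and 2 negative control samples were used, although the study's design text gives 4 of each; 1 further column with no labelled sample was not used. A gene needed 5 counts or more in 2 samples or more to enter the fit, made with edgeR 4.0.16 (TMM, robust quasi-likelihood test, Benjamini-Hochberg adjustment over all genes), after a test on simulated data. DESeq2 1.42.0 and limma 3.58.1 were alternatives. The members and lists were chosen with earlier results of these data known. Values in every sample are given for Gm39822, for members past 1.5-fold and for the highest and lowest member of each role, other members are given by their fold change, and of the 59 partner genes the 8 with the largest called changes were taken, of which 1 is not reported here. Replicates differed beyond sampling noise (chi-square per degree of freedom 5.87 to 28.0). Exon lengths, GC content and neighbours came from GENCODE on GRCm39, and gene positions and promoters from RefSeq on mm10.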

Additional observations from a re-analysis of the deposited data

Results flagged for a closer look

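Among 71 genes looked at, 7 had a GapmeR sample far from the other three, with a gap to the nearest sample, divided by the range, above Dixon's 95% critical value; chance flags about 1 in 20 groups. Cpsf2 was at 142 CPM in GapmeR sample 1 against 123 to 125 CPM in the others (ratio 0.892). GapmeR sample 2 stood apart for Pabpn1, at 89.3 CPM against 65.7 to 69.0 CPM (0.859), and for Ppp1r10, at 88.6 CPM against 97.5 to 98.3 CPM (0.920). GapmeR sample 4 stood apart for Rprd1b, at 50.1 CPM against 47.3 to 47.7 CPM (0.859), for Cdk12, at 50.0 CPM against 52.3 to 52.6 CPM (0.885), and for Rsph6a, at 23.6 CPM against 25.56 to 25.63 CPM (0.962). Itpka was at 2.10 CPM in GapmeR sample 3 against 1.11 to 1.26 CPM (0.853). Without GapmeR sample 2, Ppp1r10 kept its call, and Rprd1b and Rsph6a kept theirs without sample 4.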

How the results depend on the processing

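Of the 24 called members, 9 kept their call under every scaling, test, filter and block and without each sample, 15 lost it under at least 1 of these, and 2 (Cpsf1 and Cpsf7) changed direction, under the GC curve. Another 20 members gained a call under at least 1. The edgeR test called 12 members higher and 12 lower, and so did DESeq2, DESeq2 size factors and limma-voom. Library size scaling gave 17 higher and 4 lower members, 18 higher and 6 lower partner genes and a median of 0.11 over the members. The GC curve gave 7 and 28 members, 3 and 39 partner genes and a median of -0.25. Over all genes, 33.5% were higher and 11.7% lower with library size scaling, and 18.0% and 40.6% with the GC curve. At least 10 counts in every sample gave 13 and 7 partner genes and a median of 0.0117. A fold of 1.5 left 6 and 1 members and 2 and 2 partner genes, or 3 and 2 with an unadjusted p. With the adjusted p it left 17.8% of all genes higher and 7.62% lower. Leaving out samples gave 7 to 13 members higher and 5 to 13 lower, 4 to 9 partner genes higher and 6 to 16 lower, and medians from -0.0368 to 0.0338; the lowest counts came without negative control sample 2. Gm39822 could not be fitted without either control or with 10 counts in every sample. The cause of these shifts was not tested beyond the shift of all genes given above.

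Under the GC curve, values turned to -0.13 for Cpsf1, -0.26 for Cpsf3, -0.19 for Cstf2t, -0.0262 for Cpsf7, -0.25 for Rprd2, -0.20 for Wdr82 and -0.23 for Fpgs. The replicate numbers did not pair the samples (correlations of deviations -0.06 and 0.12 for the 2 pairs). With the replicate number as a block on 4 samples, 11 members rose and 10 fell and the median was 0.0280. Over all genes, 25.8% rose and 18.8% fell with the block, and 17.7% and 38.9% with the block and the GC curve. The block with the GC curve gave 7 and 24 members, 4 and 29 partner genes and a median of -0.21, with Cpsf1 at -0.15, Cpsf3 at -0.21, Cpsf7 at -0.0264 and Rprd2 at -0.24. Within 5 kb, a distance chosen after seeing the data, 4 downstream genes rose.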

Other observations

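Ak7, an adenylate kinase gene of motile cilia whose end lies 2202 bases before Papola on the same strand, was counted 65, 91, 45 and 67 times after the GapmeR and 2 and 2 times after the control oligonucleotide (log2 fold change 4.78, SE 0.45, edgeR quasi-likelihood test, adjusted p = 2.96e-07), while Papola fell. Slc39a4, a zinc transporter gene 4715 bases before Cpsf1, had 50, 61, 57 and 50 counts against 9 and 4 (log2 fold change 2.84, SE 0.37, adjusted p = 1.32e-05). Both were chosen after their values were seen. Of the 11 tested genes that end within 10 kb before a member on the same strand, 4 rose and 3 fell. Before any gene of at least 10 CPM in the controls, 26.7% rose and 21.4% fell. Of 10 that precede a member on the opposite strand, 2 rose and 4 fell, where the shares before any such gene were 24.5% and 18.8%.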
